A study of Mus musculus with 8 samples.

Results

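The zinc finger genes described here are the genes whose names begin with Zfp and a number, with Zkscan or with Zscan, leaving out Zfp36, Zfp36l1 and Zfp36l2, whose CCCH fingers bind RNA. Of the 3624 genes in the authors' deposited table, 54 fell under this rule, 52 of them with Zfp names. The table compares primary astrocyte cultures of 2 genotypes by RNA sequencing. The wild-type group held 4 samples from C57BL/6 mice, and the knockout group held 4 samples from Spp1-/- mice of the strain B6.129S6(Cg)-Spp1tm1Blh/J, which lack the gene for osteopontin, a secreted matrix protein and cytokine. In both groups the cells came from retinas and optic nerves at postnatal days 1 to 3 and were grown in DMEM/F12 with 10% fetal bovine serum. The labels do not say that the wild-type mice were littermates of the knockout mice, nor whether the samples of a group were separate cultures, so the spread behind the authors' p-values may be technical.

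C2H2 zinc finger proteins read DNA with arrays of small domains, each folded around a zinc ion by a pair of cysteines and a pair of histidines. The largest mammalian subfamily carries a KRAB domain near the N terminus. KRAB recruits TRIM28, also called KAP1, which brings in the histone methyltransferase SETDB1 and heterochromatin proteins, and many of these proteins silence transposable elements. KRAB zinc finger genes multiply by local duplication and lie in clusters of near copies, whereas zinc finger genes without KRAB include long-conserved developmental regulators.

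Because only genes that passed the authors' limits were deposited (adjusted p no larger than 0.0499 and log2 fold change no smaller than 0.58 in size), every gene below is a change by the authors' test, and a gene outside the table may have been tested and missed a limit, or not tested at all. The table holds no values per sample. Levels are therefore given as implied group means, worked out from the authors' mean normalized count and fold change with the groups taken as equal in size, and errors are the authors' standard errors (SE) on the log2 scale. Fold changes are knockout over wild type, a direction read from Spp1 itself, which had a log2 fold change of -5.90 (SE 0.11) in the authors' deposited table and implied means of 26270 in wild type and 441.1 in the knockout.

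The listed zinc finger genes leaned towards higher levels in the knockout. Of the 54, 41 were higher and 13 were lower, or 75.9% higher with an exact 95% binomial interval of 62.4 to 86.5% that covers counting error only. Over the whole table, 54.9% of the genes were higher and 45.1% were lower. The median log2 fold change was 0.68 for the members and 0.66 for all listed genes. The changes were small: 42 of the 54 (77.8%) stayed under 1 on the log2 scale, a doubling or halving, against 42.0% of all listed genes. Past that size lay 58.0% of all listed genes, of which 61.2% were higher, and 12 members, of which 7 were higher and 5 lower. The median SE was 0.25 for the members and 0.24 for all listed genes.

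**Figure D1:**
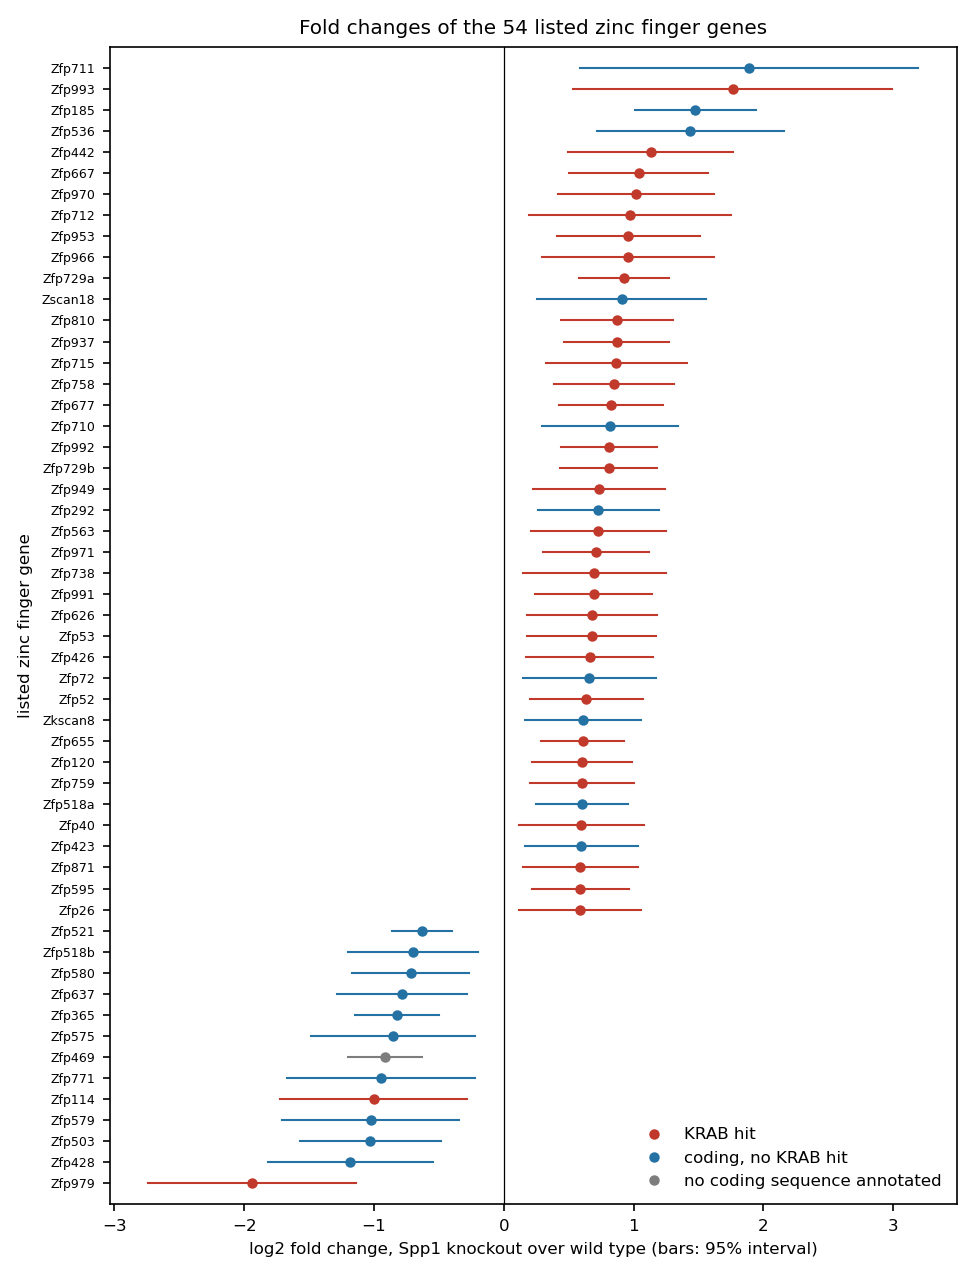
Log2 fold change of each of the 54 listed zinc finger genes, knockout over wild type, on the horizontal axis, with 1 gene per line in order of its value. Points are the authors' values, bars are 95% intervals from the authors' standard errors, and colour shows whether a KRAB domain was found in the translated protein; 41 genes lie right of 0 and 13 lie left of it.

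The direction differed between members with and without a KRAB domain. In the translated GENCODE coding sequences, 33 members had a KRAB hit, 20 had a coding sequence without one, and 1, Zfp469, had no coding sequence in that annotation. Of the 33 KRAB members, 31 were higher and 2, Zfp114 and Zfp979, were lower (93.9% higher, exact 95% interval 79.8 to 99.3%), with a median log2 fold change of 0.73. Of the 20 members without KRAB, 10 were higher and 10 were lower (50%, interval 27.2 to 72.8%). These counts stand beside the 54.9% of all listed genes that were higher, and no test of the difference was made. Both intervals cover counting error only and treat genes as independent, although 26 of the 33 KRAB members lie within 1 Mb of another member. All 27 KRAB members with a change under 1 on the log2 scale were higher, where 45.3% of the 1481 other listed genes of that size were. That limit leaves out both lower KRAB members, and Zfp114, at -1.003, lies just past it. Past the limit, 4 of 6 KRAB members were higher. The annotation holds 240 protein-coding genes with such names and a KRAB hit, and 13.8% of them were listed. For names without KRAB the share was 11% of 181, and for all protein-coding genes 16.1% of 21924, so neither share was above that of all protein-coding genes.

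The same split appeared among listed genes whose names fall outside the rule. There were 8 with KRAB, and all 8 were higher, with a median log2 fold change of 0.85. Rsl1, a KRAB protein known for repressing genes with male-biased expression in liver, stood at 1.07 (SE 0.24) in the authors' deposited table. The largest value of the 8 was 1.42 (SE 0.47) for Gm14412, and the smallest was 0.67 (SE 0.26) for 2010315B03Rik, both from the authors' deposited table. Rsl1 and Gm14403 lie between neighbouring members. The share of the transcript also found in another annotated gene was 65.1% for Gm13212, 39.4% for Gm14403, 29.2% for Gm14412 and 26.2% for Rsl1. It was 14.7% for AW146154 and lower, down to 1.8%, for 5430403G16Rik, A430033K04Rik and 2010315B03Rik. The 8 were therefore not shown to be independent of the members. Another 30 listed genes outside the rule had at least 3 finger motifs and no KRAB hit, and of these 15 were higher and 15 were lower. Zfp36l1, left out by the rule, was listed at 0.66 (SE 0.17) in the authors' deposited table.

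Among the KRAB members, Zfp729a had the smallest adjusted p, 1.43e-06, with a log2 fold change of 0.93 (SE 0.18) in the authors' deposited table. Its implied mean went from 345.4 in wild type to 656.5 in the knockout, and its protein holds 27 finger motifs. Its neighbour Zfp729b, with 30 motifs the longest array of all members, had implied means of 246.1 and 430.8, and the authors' deposited table gave it 0.81 (SE 0.19, adjusted p = 2.05e-04). Both values were under a doubling, with 95% intervals of 0.58 to 1.27 for Zfp729a and 0.43 to 1.18 for Zfp729b. Zfp992, on chromosome 4, went from 186.6 to 327.4, at 0.81 (SE 0.19, adjusted p = 1.33e-04) in the authors' deposited table.

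The largest value of a KRAB member was that of Zfp993, at 1.76 (SE 0.63, adjusted p = 0.0198) in the authors' deposited table. It was a gene of low count, with implied means of 25.9 and 88.0, and its 95% interval ran from 0.54 to 2.99. Of the 50-base windows of its transcript, 86.8% also occur in another annotated gene, with 82.0% in Zfp991 alone, so reads of these genes could have been split or dropped in counting, and its value is uncertain. Zfp442 followed at 1.13 (SE 0.33) in the authors' deposited table, with implied means of 108.2 and 237.1. Zfp667, known as Mipu1 for its induction in ischaemic heart muscle, stood at 1.04 (SE 0.27) in the authors' deposited table and shares no window with another gene. Zfp970 reached 1.02 (SE 0.31) in the authors' deposited table, and 57.2% of its windows occur elsewhere. Past 1 on the log2 scale, the higher KRAB members thus included both a gene with a unique transcript and genes with near copies.

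The other higher KRAB members lay between 0.59 and 0.97 on the log2 scale. Zfp712 stood at 0.97 (SE 0.40, adjusted p = 0.0479) in the authors' deposited table, with a wide interval of 0.19 to 1.75 and implied means of 33.4 and 65.5. Zfp953 was close to it at 0.96 (SE 0.28) in the authors' deposited table. Zfp966 had the same rounded value, 0.96 (SE 0.34), in the authors' deposited table, and 89.6% of its windows are shared, most with Zfp968. Zfp937 and Zfp677 were more precisely measured, with adjusted p of 2.12e-04 and 3.59e-04 in the authors' deposited table. Zfp810, Zfp715, Zfp949 and Zfp626, which have no member as a neighbour, lay between 0.68 and 0.87 in the authors' deposited table. Zfp871 had the highest mean normalized count of all members, 2341 in the authors' deposited table, a quantity that also grows with transcript length and is not a level per length. Its implied means of 1868 and 2814 differed by 0.59 (SE 0.23, adjusted p = 0.0313) in the authors' deposited table. The counts of this family were therefore moderate, with a median mean normalized count of 226.5 over the 33 KRAB members, below the 340.5 of all listed genes.

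**Figure D2:**
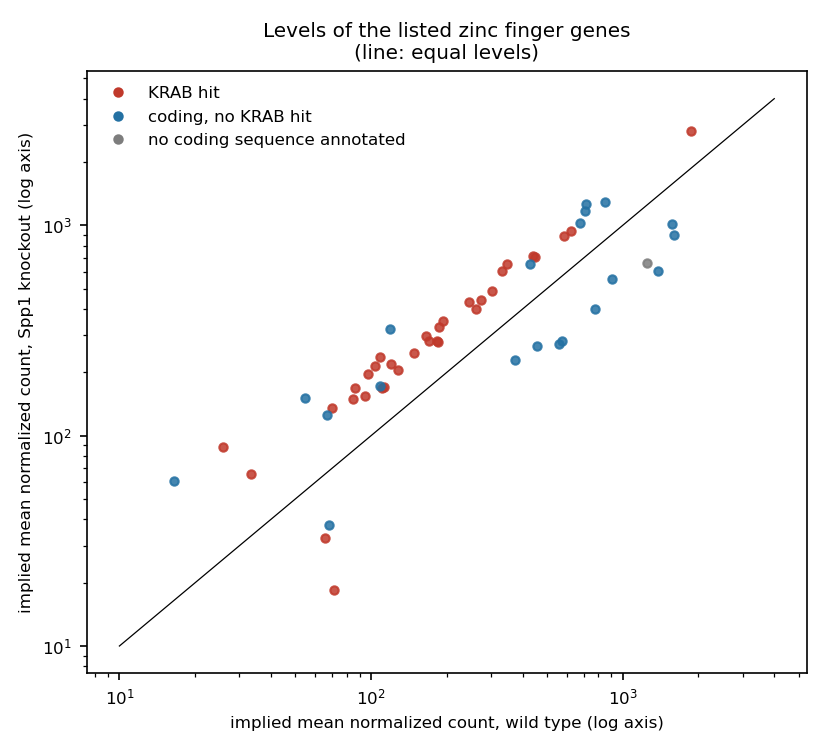
Implied mean normalized count in wild type (horizontal) and in the knockout (vertical) for the 54 genes, both on log axes, with a line at equal levels. KRAB members other than Zfp114 and Zfp979 lie above the line, from 25.9 in wild type for Zfp993 to 1868 for Zfp871, while members without KRAB lie on both sides.

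The lower KRAB members were Zfp979 and Zfp114. Zfp979 had the most negative value of all members, -1.94 (SE 0.41, adjusted p = 1.88e-05) in the authors' deposited table, with implied means of 71.2 in wild type and 18.5 in the knockout, a 3.84-fold lower level. Zfp114 stood at -1.0 (SE 0.37, adjusted p = 0.0249) in the authors' deposited table, with 65.5 in wild type and 32.7 in the knockout. Both had mean normalized counts under 50. Both share part of their transcript with other genes, 24.6% of windows for Zfp979 and 37.9% for Zfp114. Sharing was not particular to the lower KRAB members. Among the higher ones it was 87.0% for Zfp991, 43.7% for Zfp992, 40.8% for Zfp729b and 31.5% for Zfp937. Others, such as Zfp667, shared no window. Once genes with a mean count under 100 were left out, all 29 remaining KRAB members were higher.

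The 10 higher members without KRAB included several known regulators. Zfp711, an X-linked relative of Zfx that binds CpG-rich promoters, had the largest value of all members, 1.89 (SE 0.67, adjusted p = 0.0184) in the authors' deposited table. It was also the member with the lowest count, with implied means of 16.5 and 61.2 and an interval of 0.59 to 3.20. Zfp185, which encodes a LIM-domain protein of the actin cytoskeleton and held 0 C2H2 motifs, stood at 1.48 (SE 0.24, adjusted p = 9.73e-09) in the authors' deposited table, with implied means of 54.5 and 151.5. Zfp711 and Zfp185 were the 2 members on the X chromosome. Both genes were higher in a table where 4 of 7 Y-linked genes were listed, all 4 higher with log2 values of 5.92 to 13.26. Their implied means were 0.16 to 15.0 in wild type and 457.4 to 1605 in the knockout, so the Y-linked signal moved with genotype. The labels do not give sex. For every member, with KRAB or without, sex cannot be told apart from genotype here, and its part in these changes was not tested.

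Zfp536, a repressor of neuronal differentiation, was at 1.44 (SE 0.37, adjusted p = 6.14e-04) in the authors' deposited table, with implied means of 119.1 and 322.5. Zfp710 went from 716.4 to 1262, at 0.82 (SE 0.27) in the authors' deposited table. Zfp292, which encodes a very large finger protein expressed in developing brain, went from 707.0 to 1173, at 0.73 (SE 0.24) in the authors' deposited table. Zfp710 and Zfp292 thus changed by less than a doubling. Zfp72, a gene of chromosome 13 with 11 finger motifs, was at 0.66 (SE 0.26) in the authors' deposited table. The members with a SCAN domain, which pairs finger proteins with each other, were Zscan18 and Zkscan8. Zscan18 was at 0.91 (SE 0.33, adjusted p = 0.0244) and Zkscan8 at 0.61 (SE 0.23, adjusted p = 0.0280), both in the authors' deposited table. Although its name stands for a protein with KRAB and SCAN, no annotated isoform of Zkscan8 gave a KRAB hit. These 2 were the only SCAN genes listed of 43 annotated under such names (4.65%).

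Among the 13 lower members, several had high counts and small errors. Zfp469, whose human counterpart is mutated in brittle cornea syndrome and is tied to collagen fibrils, had the smallest adjusted p of the lower members, 7.27e-09, at -0.92 (SE 0.15) in the authors' deposited table. Its implied means were 1252 in wild type and 663.1 in the knockout. Zfp521, a many-fingered regulator of progenitor cells, went from 1566 to 1011, at -0.63 (SE 0.12, adjusted p = 1.43e-06) in the authors' deposited table. Zfp365, whose product binds the scaffold protein DISC1, went from 1599 to 904.3, at -0.82 (SE 0.16, adjusted p = 5.83e-06) in the authors' deposited table. Each of these 3 genes changed by less than 1 on the log2 scale.

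Zfp428 went from 1382 to 609.2, the largest decrease among lower members without KRAB, at -1.18 (SE 0.33, adjusted p = 1.73e-03) in the authors' deposited table. Zfp503, known as Nolz1 and active in the developing striatum, limb and eye, went from 574.3 to 281.5, at -1.03 (SE 0.28, adjusted p = 1.31e-03) in the authors' deposited table. Zfp579 had the same rounded log2 value of -1.03 with a larger error (SE 0.35) in the authors' deposited table. Zfp771 followed at -0.95 (SE 0.37), again in the authors' deposited table. The other 4, Zfp575, Zfp637, Zfp580 and Zfp518b, lay between -0.86 and -0.70 in the authors' deposited table, with adjusted p of 0.0291, 0.0102, 8.64e-03 and 0.0249. Zfp575 was the one of the 4 with a low count, at implied means of 67.9 and 37.5.

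Pairs of related genes without KRAB stood on opposite sides. Zfp423, the closest relative of Zfp521 and a factor in cerebellar development and fat cell commitment, went from 853.2 to 1291, at 0.60 (SE 0.22, adjusted p = 0.0266) in the authors' deposited table, whereas Zfp521 was lower. Both proteins held 27 finger motifs, and neither transcript shares a 50-base window with another gene. Zfp518a was higher, at 0.60 (SE 0.18) in the authors' deposited table, while Zfp518b, whose human counterpart has been linked to the histone methyltransferase G9a, was lower at -0.70 (SE 0.26) in the authors' deposited table. The pairs were picked after their values had been seen.

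Finger number went with KRAB and with direction. The 33 KRAB members had a median of 14 C2H2 motifs, from 2 in Zfp993 to 30 in Zfp729b, and the 20 without KRAB had a median of 7. Of the 35 members with at least 10 motifs, 33 were higher and 2 were lower, the latter being Zfp114 and Zfp521. Of the 12 with 3 to 9 motifs, 5 were higher and 7 lower, and of the 6 with fewer, 3 were higher and 3 lower. The lower ones with fewer were Zfp365 and Zfp503, with 0 motifs, and Zfp428, with 1. The higher ones were Zfp185 with 0, Zscan18 with 1 and Zfp993 with 2. Within the members without KRAB, 6 of 7 with at least 10 motifs were higher, as were 4 of 13 with fewer. The numbers are small, and the classes were drawn after the values were known, so this is a description of these 53 coding members.

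**Figure D3:**
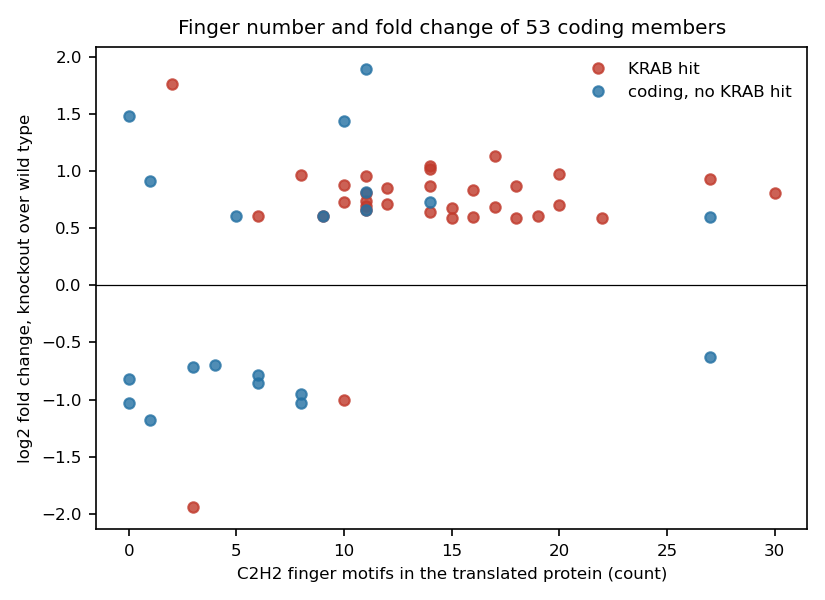
Number of C2H2 finger motifs in the translated protein (horizontal) against log2 fold change, knockout over wild type (vertical), for the 53 members with a coding sequence, coloured by KRAB hit. Right of 10 motifs nearly all points lie above 0, with Zfp521 at 27 motifs below it; left of 10 the points lie on both sides.

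Many of the members were neighbours. Taking members no more than 1 Mb apart as a run, 30 of the 54 lay in 9 runs, among them 26 of the 33 KRAB members and 4 of the 20 without KRAB. In 6 runs every member was higher, in 2 every member was lower, and 1 was mixed. The share of all annotated genes with such names that lie in runs was not worked out. As KRAB genes lie in clusters whether listed or not, these counts are no trait of the listed genes. With 31 of the 33 KRAB members higher, KRAB runs with every member higher are no separate result. The run with the most members lay on chromosome 13 (GRCm38), chr13:67038596-67687071, where Zfp712, Zfp759, Zfp595, Zfp953, Zfp729b, Zfp729a and Zfp738 were all higher, at 0.59 to 0.97 on the log2 scale. The run spans 648 kb and holds 19 annotated genes with such names, so 12 of them were not listed. Rsl1 lies in the same interval and was higher as well.

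On chromosome 17, chr17:21383748-23193252, the 5 genes Zfp677, Zfp53, Zfp52, Zfp758 and Zfp40 were all higher, at 0.60 to 0.85. The interval holds 20 annotated genes with such names, so most of them were not listed. The other listed gene of that interval, Gm16386, was lower, at -1.39 in the authors' deposited table. A further pair on that chromosome, Zfp871 and Zfp563, was also higher, in an interval with 8 annotated genes with such names. On chromosome 2, chr2:150114406-150451486, Zfp120, Zfp937 and Zfp442 were higher, at 0.61 to 1.13. These were all 3 annotated genes with such names in that interval. Counting other names, it holds 7 annotated KRAB genes, so some KRAB genes there were not listed. Zfp970 and Zfp971 on chromosome 2 and Zfp26 and Zfp426 on chromosome 9 were the remaining all-higher runs. Their intervals hold 3 and 2 annotated genes with such names. The mixed run lay on chromosome 4, chr4:146449023-147642513, where Zfp992, Zfp993 and Zfp991 were higher and Zfp979 was lower. That interval holds 10 annotated genes with such names.

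The lower runs were both on chromosome 7. In chr7:24175060-24587641, Zfp114, Zfp428 and Zfp575 were lower, at -1.18 to -0.86, and 6 further genes with such names there were not listed. The same interval held 3 other listed genes: the potassium channel gene Kcnn4 was higher, at 3.87, and the urokinase receptor gene Plaur and the adhesion gene Cadm4 were lower, at -0.96 and -0.73, in the authors' deposited table. In chr7:4983483-5053723, Zfp579 and Zfp580, both without KRAB, were lower, and the interval holds 5 annotated genes with such names. All 9 members on chromosome 13, all 7 on chromosome 17, all 6 on chromosome 2 and all 4 on chromosome 9 were higher, whereas the 12 on chromosome 7 split into 6 and 6. Zfp655 and Zfp518b were the 2 members on chromosome 5, 40.8 Mb and 65.8 Mb from Spp1, so no member lay close to the deleted gene. Among the KRAB genes outside the rule, 5430403G16Rik, which starts at chr5:109674545, lay nearer to Spp1 (chr5:104435118-104441050) than any member. The part of linkage to Spp1 in its value was not tested.

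**Figure D4:**
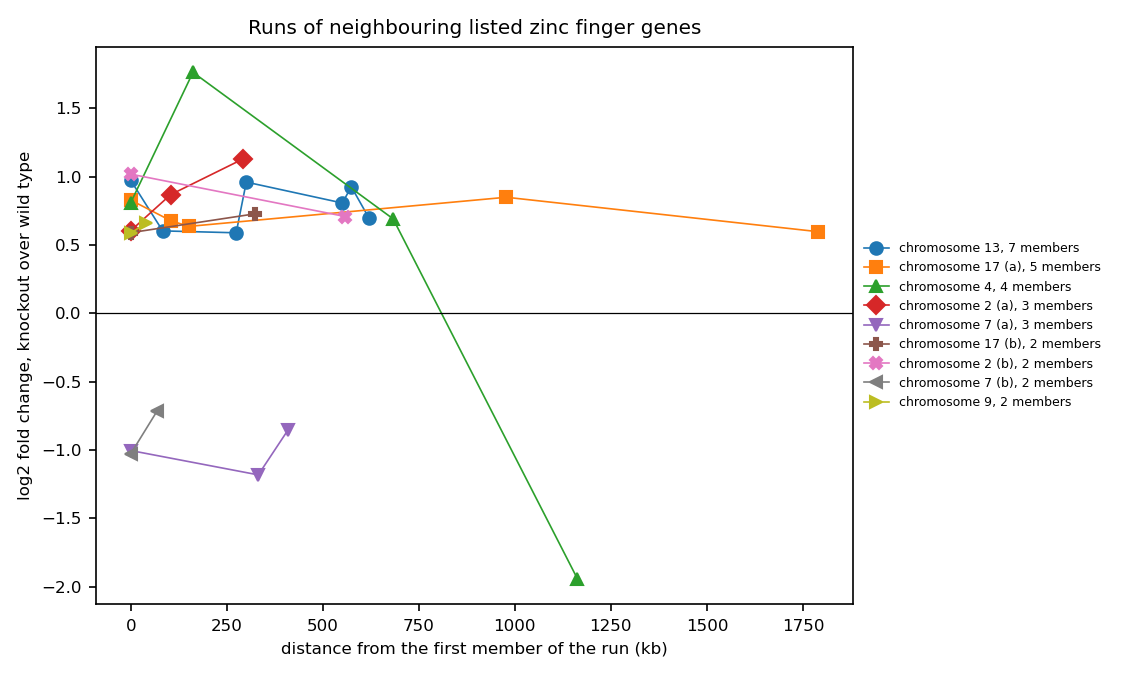
Log2 fold change, knockout over wild type, of the 30 members in 9 runs of neighbours, against the distance in kb from the first member of the run; each line joins the members of 1 run. Both chromosome 7 runs lie below 0, the chromosome 4 run drops to -1.94 at Zfp979, and the other 6 runs lie above 0.

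Promoters are shown for pairs of neighbours that were higher together and for 1 lower member. Both pairs are among the most alike of the 29 pairs of neighbours compared, so they do not show how alike such genes usually are. The sequences are the 250 bases before the annotated start, from RefSeq (GRCm38.p6), written 5′ to 3′ on the gene's strand. Capitals mark stretches of at least 12 bases found in both promoters of a pair. The first pair is Zfp729a (chr13:67637782-67638031, minus strand) and Zfp738 (chr13:67683513-67683762, minus strand), the second is Zfp937 (chr2:150217849-150218098, plus strand) and Zfp442 (chr2:150451502-150451751, minus strand), and the lower member is Zfp579 (chr7:4996102-4996351, minus strand), which is shown without a partner and so in lower case.
Zfp729a: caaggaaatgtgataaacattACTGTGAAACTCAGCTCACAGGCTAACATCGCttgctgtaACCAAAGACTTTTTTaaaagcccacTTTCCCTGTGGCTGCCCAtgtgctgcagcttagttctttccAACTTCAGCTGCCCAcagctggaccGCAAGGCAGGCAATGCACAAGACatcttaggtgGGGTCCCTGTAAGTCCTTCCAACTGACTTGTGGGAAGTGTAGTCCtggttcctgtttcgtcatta
Zfp738: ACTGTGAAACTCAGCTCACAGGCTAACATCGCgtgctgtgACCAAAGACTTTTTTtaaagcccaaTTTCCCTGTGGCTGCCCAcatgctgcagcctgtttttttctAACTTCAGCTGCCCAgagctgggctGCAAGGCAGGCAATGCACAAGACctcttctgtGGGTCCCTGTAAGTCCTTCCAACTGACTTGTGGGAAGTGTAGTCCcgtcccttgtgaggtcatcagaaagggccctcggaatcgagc
Zfp937: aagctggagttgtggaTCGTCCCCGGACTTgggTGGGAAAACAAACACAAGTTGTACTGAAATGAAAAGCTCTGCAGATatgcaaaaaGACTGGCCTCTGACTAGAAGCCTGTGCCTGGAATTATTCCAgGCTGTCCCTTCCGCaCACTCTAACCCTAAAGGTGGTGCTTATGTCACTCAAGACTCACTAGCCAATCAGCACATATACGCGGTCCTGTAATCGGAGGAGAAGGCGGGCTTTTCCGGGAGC
Zfp442: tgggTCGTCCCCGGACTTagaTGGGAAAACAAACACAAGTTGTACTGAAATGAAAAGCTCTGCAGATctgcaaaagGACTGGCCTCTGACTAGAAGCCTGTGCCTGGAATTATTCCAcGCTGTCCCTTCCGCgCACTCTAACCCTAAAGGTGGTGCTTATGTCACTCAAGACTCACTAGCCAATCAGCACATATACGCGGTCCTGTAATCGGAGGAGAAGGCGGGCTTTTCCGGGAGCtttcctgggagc
Zfp579: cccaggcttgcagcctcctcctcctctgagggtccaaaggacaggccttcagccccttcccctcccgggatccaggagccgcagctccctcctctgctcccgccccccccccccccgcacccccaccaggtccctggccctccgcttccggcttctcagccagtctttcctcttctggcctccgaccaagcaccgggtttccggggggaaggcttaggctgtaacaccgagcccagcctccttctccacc

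Zfp937 and Zfp442 shared 220 of the 250 bases in such stretches (88.0%), the longest of 105 bases. Zfp729a and Zfp738 shared 148 bases (59.2%), with a longest stretch of 45. Zfp970 and Zfp971 shared 91.6%. Across the 29 pairs of neighbours whose promoters were both in the table, 18 shared at least 1 stretch of 12 bases, and these fell in 4 of 8 runs. Most of the 18 came from the chromosome 13 run, where the same few genes recur, so the pairs are not separate observations. Neighbours that were not listed were not compared, so the count is no trait of the listed genes. Zfp579 and Zfp580, which were lower together, shared no stretch of that length. Neither did Zfp26 and Zfp426 or Zfp871 and Zfp563, which were higher together. The other run of lower members, Zfp114, Zfp428 and Zfp575, gave no pair of promoters to compare. Zfp993 and Zfp979, which moved in opposite directions, shared no stretch of that length. Nearly all of the 29 pairs moved in the same direction, and the part of shared promoter sequence in this was not tested.

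The RefSeq table held promoters for 45 of the 54 members, 28 of them with KRAB. The pentamer CCAAT, the box bound by NF-Y, occurred on either strand in 57.1% of the 28 KRAB promoters, in 17.6% of the 17 others and in 34.3% of all 27025 promoters of this length. Among 238 annotated KRAB genes that were not listed the share was 58.4%. TATAAA, the TATA box, was in 0 of the 28 KRAB promoters and in 5.9% of the 17 others. It was in 3.8% of the KRAB genes that were not listed and in 12.9% of all promoters. The palindrome TGACGTCA, the full cyclic AMP response element, was in 10.7% of the KRAB members (3 promoters). Members without KRAB had a like share, 11.8% (2 promoters). The share was 2.5% of the KRAB genes that were not listed and 1.6% of all. CCGCCC, the GC box, was in 39.3% of the KRAB members and 41.2% of the members without KRAB. It was in 26.1% of the KRAB genes that were not listed, 52.0% of all listed genes and 33.0% of all promoters. CCGGAAG, an ETS site, was in 17.9% of the KRAB members and 11.8% of the members without KRAB. It was in 19.3% of the KRAB genes that were not listed and 7.1% of all promoters. None of these motifs contains another. A match is only a string of letters in this window and says nothing of what binds there.

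Transcript base composition moved with direction, among the members and in the table as a whole. GC content of the longest annotated transcript had a median of 39.4% over the KRAB members (34.6 to 46.0%) and 50.4% over the members without KRAB. Among the latter it was 43.3% for the 10 higher and 57.8% for the 10 lower. When the other listed genes were ordered by GC content and cut into 5 bins of like size, 67.5% of the lowest bin were higher, then 63.2, 59.4, 50 and 33.5% of the highest, and 30 of the 33 KRAB members lay in the lowest bin. Within the GC range of the KRAB members, 67.2% of 1041 other listed genes were higher, against 93.9% of the KRAB members. Of those under 1 on the log2 scale, 63.8% of 425 were higher, against all 27 KRAB members of that size, a limit that leaves out both lower KRAB members. By transcript length, cut likewise, 43.1% of the shortest bin of other listed genes and 63.1% of the longest were higher. What part base composition or length had in the direction of the members was not tested.

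**Figure D5:**
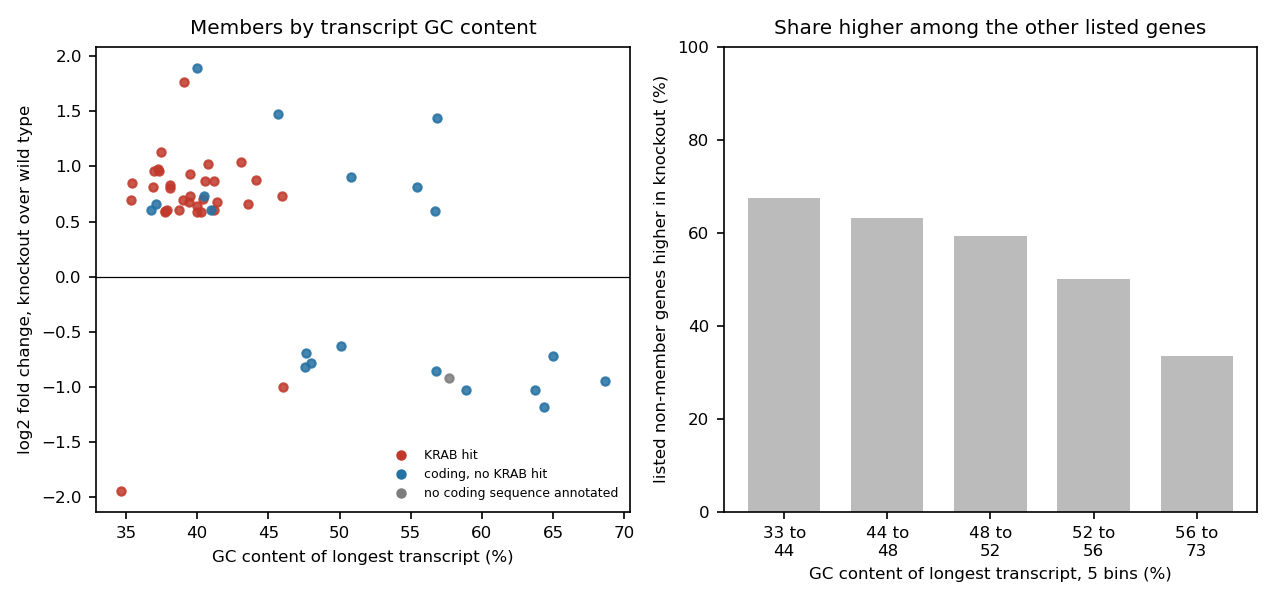
Left, GC content of the longest transcript in percent (horizontal) against log2 fold change (vertical) for the 54 members, coloured by KRAB hit. Right, bars from 0 give the percentage of other listed genes that were higher in the knockout in each of 5 bins of GC content, falling from 67.5% in the lowest bin to 33.5% in the highest.

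Of 37 genes that act with KRAB proteins or in heterochromatin, 5 were listed, 2 higher and 3 lower, without Trim28 and Setdb1. Of all protein-coding genes 16.1% were listed, and 54.9% of all listed genes were higher, so these counts do not set the list apart. Morc3, an ATPase that helps silence endogenous retroviruses, was at 1.17 (SE 0.32, adjusted p = 1.78e-03) in the authors' deposited table. Resf1, which binds SETDB1 and takes part in silencing retroelements, was at 1.15 (SE 0.19, adjusted p = 8.16e-09) in the authors' deposited table, with implied means of 799.5 and 1776. Cdca7, a partner of the remodeller HELLS, was lower at -1.27 (SE 0.21), and its relative Cdca7l at -0.99 (SE 0.16), in the authors' deposited table. Uhrf1, which guides DNMT1 to newly copied DNA, was at -0.85 (SE 0.13), also in the authors' deposited table. Cdca7 and Uhrf1 are high in dividing cells, and 14 of 22 cell cycle genes were listed, all 14 lower, with a median of -0.91. The part of cell division in these 3 values was not tested.

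A second list named 114 C2H2 transcription factors outside the rule, such as the Klf, Sp, Egr, Zic and Ikzf families. Of these, 27 were listed, 12 higher and 15 lower, with a median of -0.76. Beside this, 16.1% of all protein-coding genes were listed and 54.9% of all listed genes were higher.

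Cell type markers differed between the groups as well. The astrocyte marker Gfap was high in both, with implied means of 58310 in wild type and 91920 in the knockout, and 6 of 11 astrocyte markers were listed, 4 higher and 2 lower. Of 25 microglia and macrophage markers, 24 were listed and all 24 were higher, at 0.91 to 4.36 on the log2 scale, and Lyz2 had implied means of 14670 and 79440. All 8 listed of 11 fibroblast and meningeal markers were higher. Lower were all 10 listed neuron markers of 14, all 8 Schwann cell markers of 10, all 6 Müller glia and retinal progenitor markers of 10 and 11 of 13 listed oligodendrocyte markers. In bulk RNA, fewer cells of a type and less RNA per cell cannot be told apart. The part of these shifts in the zinc finger values was not tested.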

How the data were processed

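RNA of cultured astrocytes was sequenced in 4 wild-type and 4 Spp1-/- samples. CASAVA 1.8, STAR 2.7, DESeq2 1.30.1 and GRCm38 are named in the submitters' processing notes, without roles. Annotation and counting step: not given in the sources used here. A single file was given, the authors' deposited table of 1 comparison with 3624 genes. Per the file headers, the authors gave each gene a mean normalized count (a signal averaged over all samples), the log2 fold change and its standard error, the Wald statistic (a score), and the p-value, raw and adjusted. It holds no column of per-sample values, so depth per sample is unknown, no test across samples was possible, and precision rests on the deposited standard errors.

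The members and gene lists were chosen with earlier results of these data known. Named genes were the 10 most extreme members in each direction, the 5 with the smallest adjusted p in each direction, the 5 with the highest mean count, all Zkscan and Zscan members, all lower members, members of the largest runs and the listed corepressor genes. Every other gene named, such as Zfp810, Zfp715, Zfp949, Zfp626, Zfp710, Zfp292 and Zfp72, was picked after its values were seen.

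Names were matched to GENCODE M21 (GRCm38; 3586 of 3624 genes, all 54 members). Coding sequences were translated in place of RefSeq proteins, which were not used here, and fingers counted as C, 2 to 4 residues, C, 12 residues, H, 3 to 5 residues, H. KRAB and SCAN were found with HMMER 3.4 profiles built from 52 and 7 seed sequences (E at most 0.001). Near copies were measured as shared 50-base windows. Intervals at 95% use the standard error and a normal distribution for fold changes, and are exact Clopper-Pearson for shares. Python 3.11.15, pandas 2.3.3 and scipy 1.17.1 were used, and the finger and window counts were tested on simulated data. Alternatives were other limits on fold change, adjusted p, count, membership, chromosome and near copies.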

Additional observations from a re-analysis of the deposited data

How the results depend on the processing

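Among genes past 1 on the log2 scale, the share of members that were higher was 58.3% (7 of 12), the median log2 fold change was 1.03, and the share among KRAB members was 66.7% (4 of 6), where few genes are left. Without genes whose mean count was under 100, the share among KRAB members was 100% (29 of 29). Under the other alternatives (an adjusted p of at most 0.001, members with at least 3 finger motifs, all listed genes with at least 3 motifs, Zfp names only, without chromosome 5, and without members sharing at least 50% of their windows) the share of members lay between 69.2 and 80.9%, and that of KRAB members between 87.5 and 95%. Members without KRAB stayed between 44.4 and 53.3% under every alternative run. The alternative without near copies, and all alternatives for the KRAB split, were added after the data were seen. No paired analysis was possible because the table holds no values per sample. Leaving out each replicate, another normalization and a fit without a filter on low counts were not run for the same reason. The filter applied before deposit hides zinc finger genes that changed less, so shares describe listed genes only.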

Other observations

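Some listed C2H2 genes outside the naming rule had larger changes than any member. Of those given here, Ikzf1, Insm1, Bcl11a and Bcl11b did, while Prdm1 and the Zic genes did not. All were picked after their values were seen. Ikzf1, a regulator of blood cell development, stood at 2.07 (SE 0.21) and Prdm1, a repressor known from lymphocytes and retina, at 1.67 (SE 0.36) in the authors' deposited table. At the other end, Insm1, a regulator of neuroendocrine and neuronal progenitors, stood at -5.10 (SE 1.34) in the authors' deposited table. The Insm1 value rests on very few reads, with a mean normalized count of 5.87 in the authors' deposited table and an implied knockout mean of 0.33. Bcl11a and Bcl11b, which act in neurons and lymphocytes, were at -2.67 (SE 0.49) and -2.64 (SE 0.80) in the authors' deposited table, where Bcl11b too had a low mean normalized count, 10.3. Zic1, Zic2 and Zic4, of a family active in meninges and neural tube, were higher, at 0.79 (SE 0.12), 0.88 (SE 0.13) and 1.32 (SE 0.21) in the authors' deposited table.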
